A study of Homo sapiens with 30 samples.

Results

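RNA of subclone 2 from liver metastases was compared with RNA of the same subclone from primary tumours. The 3 liver and 3 tumour samples carry the mouse numbers M1, M2 and M3 in the labels, and each liver sample was set against the tumour sample of its own mouse. These 6 samples are part of 18 samples in the first experiment (24 libraries) and of 30 libraries in the whole series. Subclone 2 is 1 of the 2 subclones sampled in this series, both from the human triple-negative breast cancer line MDA-MB-231. The line had been marked with LeGO vectors, lentiviral constructs that leave a heritable barcode, and the cells of the subclone had been sorted before RNA was taken. The hosts were NSG mice (NOD-SCID-IL2Rγc−/−), which lack T cells, B cells and functional NK cells. Both groups share the host strain, the line, the barcode and the absence of retransplantation. Neither the age of the mice nor the time of collection is given in the sources used here. All 6 samples come from a single subclone, so they describe that subclone and not the line.

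Liver metastases of breast cancer grow in a tissue with a fenestrated blood supply, high metabolite flow and many resident macrophages. Cells sense such surroundings through receptor pathways with fast transcriptional outputs: growth factors induce immediate early genes and their own feedback inhibitors, cytokines act through STAT proteins, and bone morphogenetic proteins induce ID genes. Interferon and NF-kB pathways switch on antiviral and inflammatory genes, TGF-beta raises matrix genes, and sterol supply sets the level of cholesterol synthesis genes.

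Liver samples had 17.5, 72.0 and 51.9 M counts (mice 1 to 3; 1 M is 1000000) and tumour samples 15.8, 13.7 and 44.6 M. The largest component of variation among the 6 samples (52.4% of the variance) set both samples of mouse 1 apart from the other 4, and the third (11.4%) set the liver sample of mouse 2 apart. Mouse and sequencing run coincide for these samples, so differences between mice and between runs cannot be told apart, while each liver-tumour pair lies within 1 run. Vimentin, a mesenchymal marker of the line, was read at 3703, 2474 and 5535 CPM (counts per 1 M, TMM-scaled) in tumour and 6042, 3653 and 3249.5 in liver, and ESR1, the estrogen receptor, stayed at 1.84 CPM or below. Levels of liver cell markers were read from the host marker lists. The counts were of human genes and the hosts were mice, so mouse RNA may be counted only in part. Low values are therefore no measure of how much liver tissue was present. ALB was at most 0.23 CPM and FGA, FGB and FGG were at 0 in all 6 samples. The 14 hepatocyte markers in the table summed to 61.5 to 77.3 CPM in tumour and 43.1 to 68.2 in liver, mostly from SERPINA1. Endothelial markers summed to 15.4 to 21.4 CPM in tumour and 28.9 to 35.1 in liver, mostly from PECAM1. Macrophage markers summed to 3.78 to 10.5 CPM in tumour and 8.47 to 20.5 in liver. CD14 was the largest member, at up to 13.95 CPM, and CLEC4F and C1QC were at 0. The 5 macrophage markers tested had a median log2 change of 1.66, and of 4.93, 1.33 and 0.42 in mice 1 to 3. No member of these 3 lists was called in the main edgeR fit. At an unadjusted p under 0.05 there were 1, 2 and 1 members, and DESeq2 called 0, 1 and 1. With no filter on low counts, edgeR called 1 of the tested members higher in liver in each list. With RLE size factors, and without the liver sample of mouse 2, it called 1 macrophage marker higher. The part of such cells in the results below was not tested. In bulk RNA, fewer cells of a type and less RNA per cell cannot be told apart.

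The genes called higher in liver metastases of subclone 2 than in its primary tumours included immediate early genes and feedback inhibitors of MAP kinase signalling. Those called lower included interferon-stimulated, NF-kB, matrix and cholesterol synthesis genes. Of 17418 genes tested, 292 were called at an adjusted p under 0.05 (1.68%), 86 higher in liver (0.494%) and 206 lower (1.18%). This was edgeR's quasi-likelihood test, fitted over all 18 samples of the first experiment with mouse as a term. The median log2 fold change of all genes tested was 0.04. The median size of change was 1.27 (log2) among the higher genes and 1.49 among the lower ones, and 13 higher and 58 lower genes changed by at least 2. In 71 of the 86 and 174 of the 206 called genes the 3 samples of 1 tissue lay above all 3 of the other. Over all genes tested that share was 9.42%. Without the mouse term the test called 50 genes (15 higher, 35 lower), all among the 292. A fit of only the 6 samples compared called 76 genes, 69 of them among the 292. Leaving out mouse 1, 2 or 3 gave 213 (1.19%), 148 or 105 calls, of which 154, 107 and 78 were among the 292. Without the mouse term the share called was 0.287%. Leaving out 1 sample gave 146 to 418 calls. The lowest number came without the tumour sample of mouse 2 and the highest without the liver sample of mouse 2 (2.29%). Without the tumour samples of mice 1 and 3 there were 165 and 189 calls, and 179 without the liver sample of mouse 3.

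**Figure D1:**
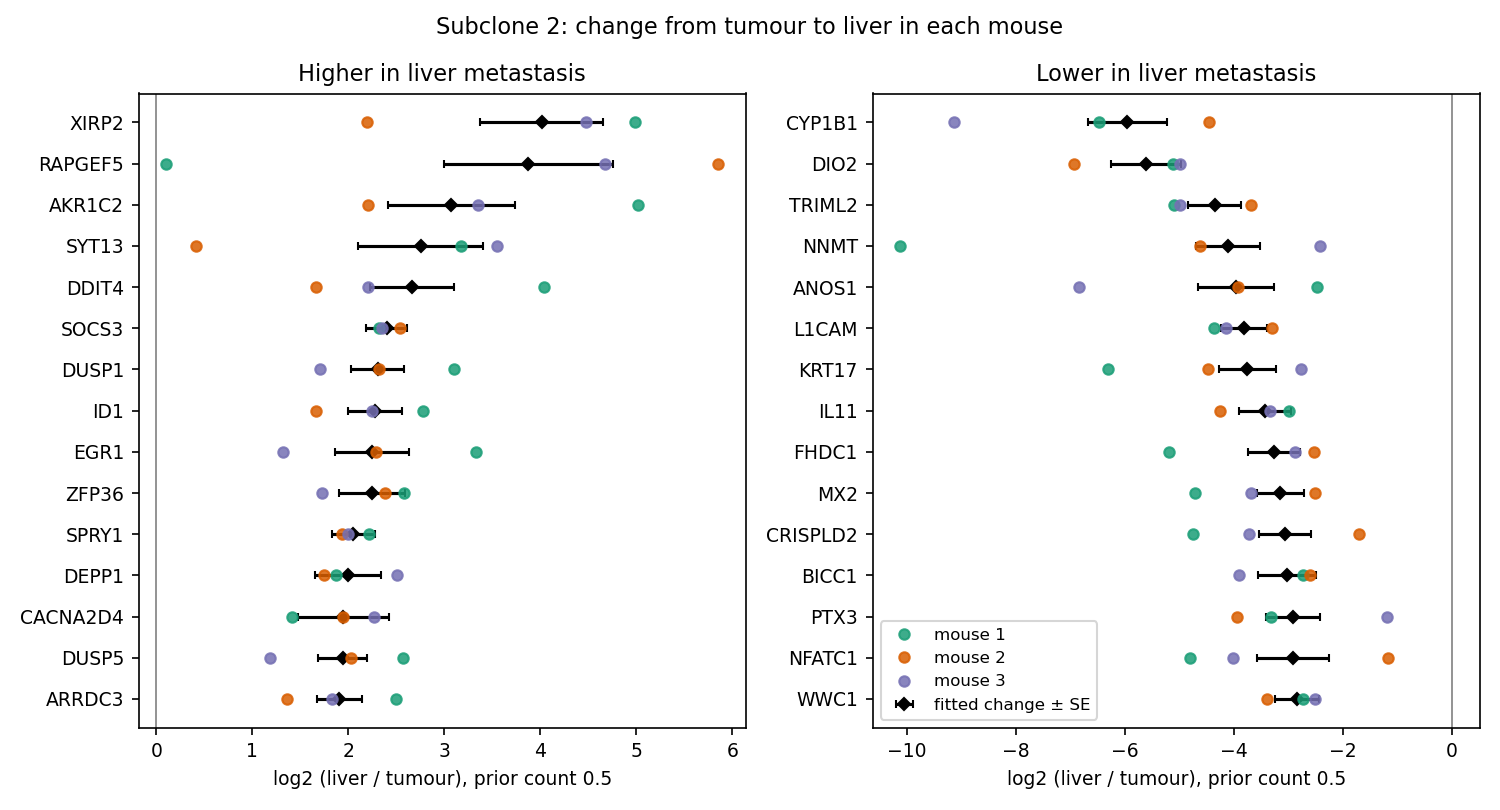
Log2 ratio of liver to tumour in each mouse (coloured points, prior count 0.5) and the edgeR log2 fold change with its standard error (black) for the 15 largest called changes in each direction that reached a mean of 5 CPM. All points of the genes higher in liver lie above 0 and all of the genes lower in liver lie under it; RAPGEF5 in mouse 1 and SYT13 in mouse 2 lie close to 0.

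Interferon-stimulated genes held the most calls of the 39 lists, all lower in liver. They encode proteins that block viral replication and are induced by interferon receptors through STAT and IRF factors. Of 32 members tested, 14 fell and none rose, against 1.18% of all genes that fell. Because all 39 lists were chosen with earlier results of these data known, such shares, here and below, are descriptions and no test. The median log2 change of the interferon list was -1.15, and 26 of the 32 were lower in liver in all 3 mice. Over all genes tested 30% shared a direction in all 3 mice, counting both directions together. MX1, a dynamin-like GTPase that blocks viruses, was read at 35.1, 64.3 and 85.6 CPM in tumour and 0.706, 19.0 and 13.1 CPM in liver. All liver values lay below all tumour values, with a log2 change of -2.68 ± 0.50 (adjusted p = 0.006, edgeR). Its paralogue MX2 was read at 7.12, 34.8 and 33.0 CPM in tumour and 0.257, 6.08 and 2.54 CPM in liver, a log2 change of -3.15 ± 0.43 (adjusted p = 0.000472, edgeR). The highest MX2 value in liver, in mouse 2, lay just below the lowest tumour value, in mouse 1. IFIT1, which binds foreign RNA ends, was read at 432, 782 and 619.6 CPM in tumour and 159.6, 218 and 235 CPM in liver. IFIT1 fell by 1.54 on the log2 scale (adjusted p = 0.0106, edgeR), and its neighbours IFIT2 and IFIT3 fell by 1.39 and 1.51. IFI6, a mitochondrial survival protein, was read at 57.8, 106 and 126 CPM in tumour and 13.7, 8.54 and 47.3 CPM in liver, and was lowest in the liver of mouse 2. The log2 change of IFI6 was -2.22 ± 0.37 (adjusted p = 0.00291, edgeR). ISG15, the ubiquitin-like modifier, was read at 190.0, 285 and 462 CPM in tumour and 103, 96.5 and 199 CPM in liver. Here the groups overlapped, since the liver of mouse 3 exceeded the tumour of mouse 1, although each mouse had less in its liver (log2 change -1.21 ± 0.26, adjusted p = 0.019, edgeR).

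The other called interferon genes were the RNA sensor IFIH1, the oligoadenylate synthetase family members OAS1, OAS3 and OASL, and IFI27, IFI44 and IFI44L. Over all 14 the change ran from -3.15 (MX2) to -0.87 (OAS3), and in 5 of them the groups overlapped. STAT2 and IRF9, which transmit the interferon signal to these genes, changed by -0.34 ± 0.28 and -0.99 ± 0.46 and were not called. None of the 14 was called without the mouse term, 9 were without mouse 1 and 11 without the liver sample of mouse 2. The 16 genes of MHC class I and peptide loading, also inducible by interferon, held no call (median -0.14), none at an unadjusted p under 0.05 and none with DESeq2.

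The promoters of 5 interferon genes that fell are shown because they carry the core of the interferon-stimulated response element, which the interferon-activated complex of STAT2 and IRF9 binds. The core was searched as GAAA, any 2 bases and GAAA, on both strands, in the 250 bases before each start site of RefSeq (GRCh38.p14). It occurred in 13 of 16 windows of the 11 called interferon genes that the table holds, in 57.1% of the windows of all tested members and in 3.02% of 35116 windows of all genes. Some genes have several windows, and these can overlap. MX2, IFIT2 and OASL had no entry. Each stretch covers bases -170 to -71 before the start, 5′ to 3′ on the gene's strand, with matches in capitals; matches overlap in ISG15.
IFIT1: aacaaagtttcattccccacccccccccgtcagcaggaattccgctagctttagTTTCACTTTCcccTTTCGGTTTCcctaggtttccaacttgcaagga
IFIT3: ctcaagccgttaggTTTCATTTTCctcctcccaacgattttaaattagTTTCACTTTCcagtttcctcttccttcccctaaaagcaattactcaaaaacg
IFI6: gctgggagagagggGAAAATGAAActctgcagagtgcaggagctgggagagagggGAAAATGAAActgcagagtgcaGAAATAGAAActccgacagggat
IFI27: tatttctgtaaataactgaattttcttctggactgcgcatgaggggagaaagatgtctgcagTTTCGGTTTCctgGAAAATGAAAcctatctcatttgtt
ISG15: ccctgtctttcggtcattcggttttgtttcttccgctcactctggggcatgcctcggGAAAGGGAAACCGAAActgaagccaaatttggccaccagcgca
Their positions are chr10:89392453-89392552, plus strand (IFIT1), chr10:89327827-89327926, plus strand (IFIT3), chr1:27672263-27672362, minus strand (IFI6), chr14:94110566-94110665, plus strand (IFI27) and chr1:1013327-1013426, plus strand (ISG15). A match describes the letters of the window and not a bound site.

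**Figure D2:**
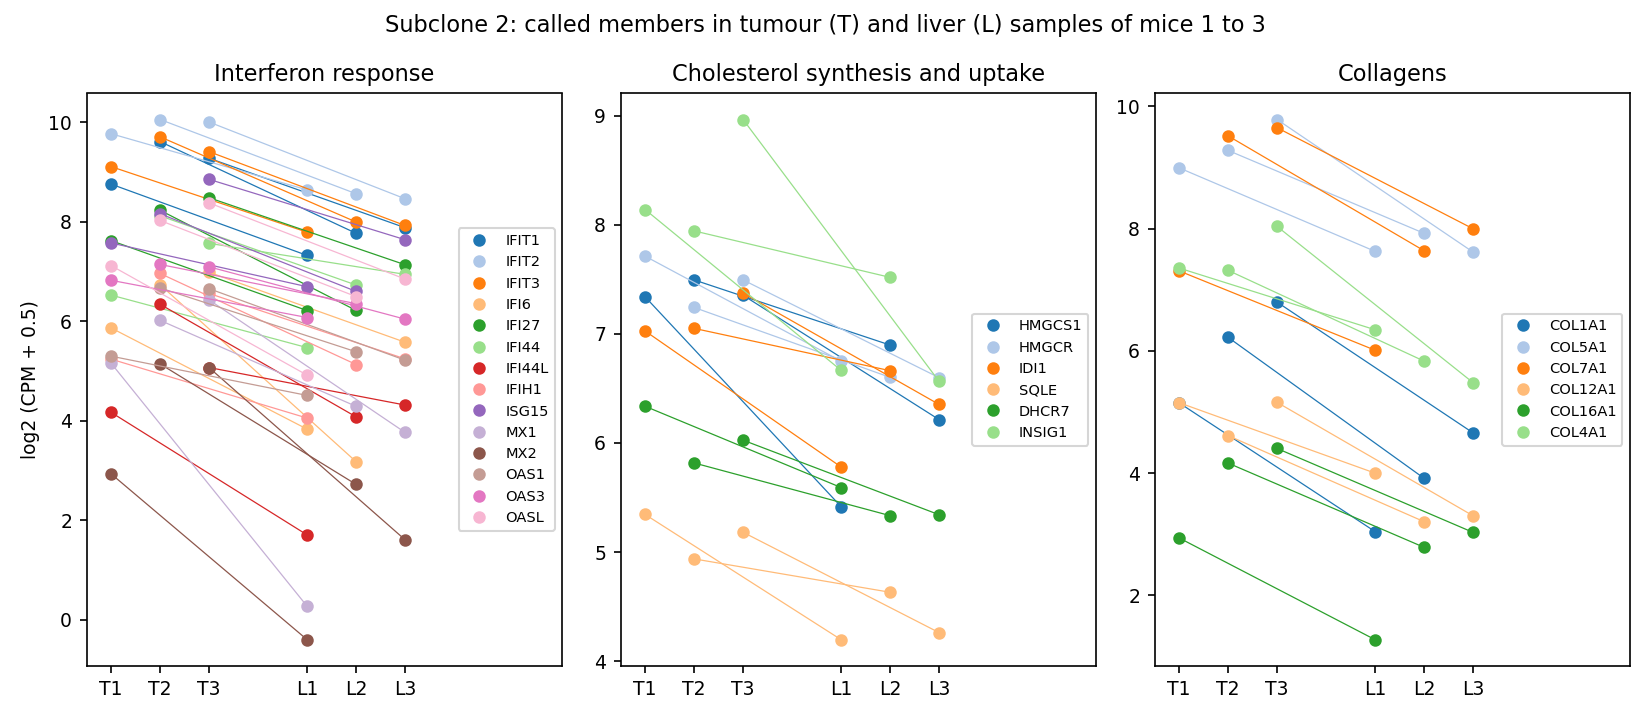
Levels of the called members of 3 gene lists, as log2 (CPM + 0.5), in tumour (T1 to T3) and liver (L1 to L3) samples of mice 1 to 3, with a line joining the samples of each mouse. All lines fall from tumour to liver, and those of the cholesterol genes are shallowest in mouse 2.

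Some NF-kB factors and targets were called lower as well. NF-kB dimers are held in the cytoplasm by inhibitors and, once released, induce inflammatory genes that include their own subunits. Of 26 members 6 fell and none rose (median -0.67). The list median was -1.04, -0.85 and -0.15 in mice 1, 2 and 3, and 13 of the 26 were lower in liver in all 3. NFKB1, which encodes the p105/p50 subunit, was read at 117, 116 and 140.1 CPM in tumour and 58.4, 67.0 and 55.4 CPM in liver, with a log2 change of -1.04 ± 0.17 (adjusted p = 0.00252, edgeR). RELB, the subunit of the noncanonical pathway, was read at 66.9, 64.5 and 72.6 CPM in tumour and 22.4, 22.9 and 32.6 CPM in liver, and fell by 1.42 (log2, adjusted p = 0.000918, edgeR). Both genes had narrow ranges in each tissue and no overlap. NFKB2 fell by 0.99 with overlapping groups, and the kinase gene MAP3K8 by 1.83, also with overlap. TNFAIP2 was read at 253, 669 and 209.8 CPM in tumour and 59.6, 90.2 and 111 CPM in liver. TNFRSF9, a costimulatory TNF receptor, was read at 5.14, 5.92 and 1.52 CPM in tumour and 0, 0.436 and 0.346 CPM in liver. The inhibitor NFKBIA showed no shared direction: it was read at 654, 790.2 and 205 CPM in tumour and 264, 193 and 623 CPM in liver, lower in liver in mice 1 and 2 and higher in mouse 3. Without mouse 1, 3 of the 6 were called, and without the mouse term only NFKB1 was. The NFKB1 promoter is shown as an example of the kB site, GGGA, any 2 bases and TTCC (in capitals), searched in the same windows on both strands. That site was in 5 of 10 windows of the 5 called members in the table. It was in 29.3% of the windows of all tested members and in 1.4% of all windows.
NFKB1: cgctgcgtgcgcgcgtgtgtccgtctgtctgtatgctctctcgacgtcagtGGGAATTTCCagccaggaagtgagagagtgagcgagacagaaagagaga
This stretch is the last 100 bases before the start, chr4:102501259-102501358, plus strand (GRCh38.p14).

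Among 23 secreted cytokines and chemokines tested, 3 fell and none rose (median -1.10). The median was -1.73, -1.38 and 0.05 in mice 1, 2 and 3, and -0.64 without mouse 1. Of the 3 calls 1 held without the mouse term and 2 without mouse 1. IL11, a cytokine of the IL6 family that is induced by TGF-beta, was read at 55.4, 40.6 and 76.8 CPM in tumour and 6.93, 2.11 and 7.60 CPM in liver. Every liver value lay well below every tumour value, for a log2 change of -3.42 ± 0.48 (adjusted p = 0.000528, edgeR). IL6 itself was read at 81.1, 294 and 245 CPM in tumour and 24.4, 85.5 and 114 CPM in liver. The IL6 groups overlapped, since the tumour of mouse 1 lay below the livers of mice 2 and 3, and within mice the change was -1.52 ± 0.31 (adjusted p = 0.0123, edgeR). CX3CL1, the membrane-bound chemokine fractalkine, fell by 2.05 (log2, adjusted p = 0.019, edgeR). CXCL8 had a similar size of change, -1.71 ± 0.50, but was not called (adjusted p = 0.102, edgeR): in mouse 3 it was slightly higher in liver.

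The largest fall among the genes named was that of CYP1B1 (ENSG00000138061, chr2:38066973-38109902, minus strand), a cytochrome P450 that oxidises estrogens and polycyclic hydrocarbons and is induced by the aryl hydrocarbon receptor. CYP1B1 was read at 58.0, 70.9 and 212 CPM in tumour and 0.641, 3.20 and 0.363 CPM in liver. The groups lay far apart, and the log2 change was -5.96 ± 0.73 (adjusted p = 0.000142, edgeR). Its exons share bases with RMDN2, RMDN2-AS1 and CYP1B1-AS1, and reads from opposite strands could not be separated with this library kit. Of 12 tested genes of the receptor pathway 3 fell and none rose; the others were the amino acid transporter SLC7A5 and the transcription factor NFE2L2. The receptor AHR was read at 196, 220.3 and 251 CPM in tumour and 84.9, 244 and 192 CPM in liver, and was not called. TIPARP, another receptor target, changed by -0.17 ± 0.24 and was not called. Without mouse 1 only CYP1B1 of the 3 was called. The receptor's core site GCGTG, searched in the same way, was in 3 of 3 windows of NFE2L2 and SLC7A5, and CYP1B1 had no entry. It was in 58.3% of the windows of all tested members and in 32.2% of all windows.

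Other enzymes among the named lower genes were DIO2 and NNMT. DIO2, which activates thyroid hormone, was read at 2.72, 18.6 and 26.4 CPM in tumour and 0.0641, 0.137 and 0.813 CPM in liver (log2 change -5.62 ± 0.64, adjusted p = 7.78e-05, edgeR). NNMT, a methyltransferase that consumes methyl groups to modify nicotinamide and is abundant in hepatocytes, was read at 17.0, 15.9 and 14.3 CPM in tumour and 0, 0.636 and 2.65 CPM in liver. The 3 tumour values of NNMT lay close together, and the liver values ranged from 0 to 2.65 (log2 change -4.10 ± 0.59, adjusted p = 0.00061, edgeR). The tripartite-motif family gene TRIML2 was read at 16.0, 43.8 and 39.8 CPM in tumour and 0.449, 3.39 and 1.25 CPM in liver (log2 change -4.35 ± 0.48, adjusted p = 6.83e-05, edgeR). PTX3, a soluble pattern-recognition protein, was read at 102, 196 and 41.8 CPM in tumour and 10.2, 12.7 and 18.2 CPM in liver (log2 change -2.92 ± 0.50, adjusted p = 0.00317, edgeR), without overlap but lost as a call without mouse 1 or mouse 2. The other named lower genes, FHDC1, CRISPLD2, BICC1 and NFATC1, fell by 3.27, 3.06, 3.02 and 2.91 on the log2 scale. As for CYP1B1, reads of a gene on the other strand could not be told apart for PTX3 (VEPH1), DIO2 (DIO2-AS1), L1CAM (L1CAM-AS1), DEPP1 (RASSF4), ARRDC3 (ARRDC3-AS1), PDE2A (PDE2A-AS1 and PDE2A-AS2), CRISPLD2 and SYT13, whose exons share bases with such genes.

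Extracellular matrix genes were called in 1 direction, with none higher in liver among collagens or matrix proteins. Of 21 collagen genes tested 6 fell (median -0.42), and in 2 of these 6 the groups overlapped. The list median was -0.68, 0.03 and -0.78 in mice 1, 2 and 3, so the list as a whole did not fall in mouse 2. COL5A1, a chain that regulates fibril width, was read at 510.1, 622 and 883 CPM in tumour and 198, 243 and 196 CPM in liver (log2 change -1.61 ± 0.24, adjusted p = 0.000791, edgeR). COL4A1, a basement membrane chain, was read at 163, 159 and 262 CPM in tumour and 80.9, 56.6 and 44.2 CPM in liver (log2 change -1.71 ± 0.28, adjusted p = 0.00229, edgeR). COL4A2, which pairs with COL4A1, changed by -0.98 ± 0.30 and was not called. COL1A1, COL7A1, COL12A1 and COL16A1 fell by 2.22, 1.63, 1.54 and 1.53 (log2). Fibroblast and stellate markers moved with these genes: their 12 members summed to 47.3 to 65.5 CPM in tumour and 19.7 to 34.2 in liver, PDGFRB fell by 1.35 (log2), and THY1 was at 0 in all 6 samples. Their part in the collagen result was not tested.

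Of 39 matricellular proteins and matrix enzymes 7 fell and none rose (median -0.60). TGFBI, a secreted adhesion protein induced by TGF-beta, was read at 377, 454 and 676 CPM in tumour and 153, 71.0 and 75.7 CPM in liver. All liver values lay well below the tumour values, for a log2 change of -2.40 ± 0.33 (adjusted p = 0.000472, edgeR). LOX, which cross-links collagen, was read at 124, 102 and 158 CPM in tumour and 39.5, 34.2 and 38.4 CPM in liver (log2 change -1.76 ± 0.22, adjusted p = 0.000209, edgeR). Tenascin C (TNC), thrombospondin 1 (THBS1) and the protease ADAMTS6 fell by 1.05, 2.19 and 1.78 on the log2 scale. The protease MMP7 was low, at 1.05, 0.446 and 0.714 CPM in tumour, and was at 0 in the 3 liver samples. Without the mouse term 2 of the 6 collagens and 2 of the 7 matrix genes were called, and without mouse 1, 5 and 6.

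L1CAM (ENSG00000198910, chrX:153861514-153886174, minus strand), a neural adhesion molecule, fell to a low level. It was read at 42.5, 55.7 and 86.9 CPM in tumour and 2.05, 5.66 and 4.92 CPM in liver, with each mouse falling by more than 3 on the log2 scale, and a fitted change of -3.82 ± 0.43 (adjusted p = 6.83e-05, edgeR). Its exons share bases with L1CAM-AS1. In the same list of 24 the adhesion protein gene CLMP rose by 0.90. ANOS1, a secreted matrix protein, and KRT17, an epithelial keratin, were read at 8.61, 8.73 and 5.71 CPM in tumour and 1.54, 0.561 and 0.0346 CPM in liver and at 21.6, 35.2 and 120.3 CPM in tumour and 0.257, 1.56 and 17.6 CPM in liver. KRT17 has near-identical paralogues, so its reads may be shared with them. The levels of both differed among mice, with KRT17 highest in mouse 3 in each tissue.

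TGF-beta and Hippo pathway genes were called in 1 direction. Of 21 TGF-beta response genes 4 fell and none rose (median -0.19), among them TGFBI, LTBP2, which binds microfibrils, and PTHLH, a hormone-like peptide known from bone metastasis. PTHLH was read at 14.2, 11.2 and 40.5 CPM in tumour and 3.14, 5.09 and 9.62 CPM in liver (log2 change -1.81 ± 0.33, adjusted p = 0.00515, edgeR). SMAD7, the feedback inhibitor of TGF-beta, changed by 0.29 ± 0.32 and was not called. Of 26 Hippo pathway genes and YAP targets 4 fell and none rose. Of the members that fell 2 restrain YAP. WWC1 (KIBRA) was read at 20.1, 11.2 and 14.8 CPM in tumour and 3.01, 1.05 and 2.58 CPM in liver (log2 change -2.84 ± 0.40, adjusted p = 0.000528, edgeR), and the kinase gene LATS2 at 110.5, 87.3 and 139 CPM in tumour and 46.4, 54.0 and 58.9 CPM in liver (log2 change -1.07 ± 0.18, adjusted p = 0.00262, edgeR). AJUBA, which binds LATS kinases, and F3, tissue factor, fell by 0.96 and 1.33. The YAP targets CCN1 and CCN2 changed by 0.09 ± 0.27 and -0.19 ± 0.30 and were not called.

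Of 20 vasoactive genes 3 fell and none rose (median -0.05). EDN1, the precursor of endothelin 1, was read at 119, 94.5 and 74.4 CPM in tumour and 32.3, 7.39 and 18.2 CPM in liver, lowest in the liver of mouse 2 (log2 change -2.43 ± 0.34, adjusted p = 0.000504, edgeR). The lymphangiogenic factor VEGFC and the prostaglandin receptor PTGER4 fell by 0.86 and 0.99.

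Cholesterol synthesis genes, which sterols repress through SREBP2 and INSIG1, fell in 6 of 26 with no rise (median -0.54). HMGCS1, an early enzyme of the pathway, was read at 162, 180.0 and 163 CPM in tumour and 42.2, 119 and 73.8 CPM in liver (log2 change -1.23 ± 0.22, adjusted p = 0.00569, edgeR). INSIG1, the sterol sensor partner, was read at 282, 246 and 499.9 CPM in tumour and 101, 183 and 94.2 CPM in liver (log2 change -1.38 ± 0.29, adjusted p = 0.0176, edgeR). IDI1, SQLE and DHCR7 fell by 0.90, 0.80 and 0.64. In all 6 genes the groups did not overlap. None of the 6 was called without mouse 1 or without the mouse term. The sterol regulatory element, searched as TCAC, any base and CCAC, was in 0 of 8 windows of the 4 called members in the table. It was in 1 of 25 windows of all tested members and in 0.883% of all windows. Of 23 amino acid transporters 3 fell, SLC7A2, SLC7A5 and SLC43A2, and none of these was called under either of those settings. The lipid transporter MFSD2A fell by 1.98, while HILPDA, a lipid droplet protein, rose by 1.70.

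**Figure D3:**
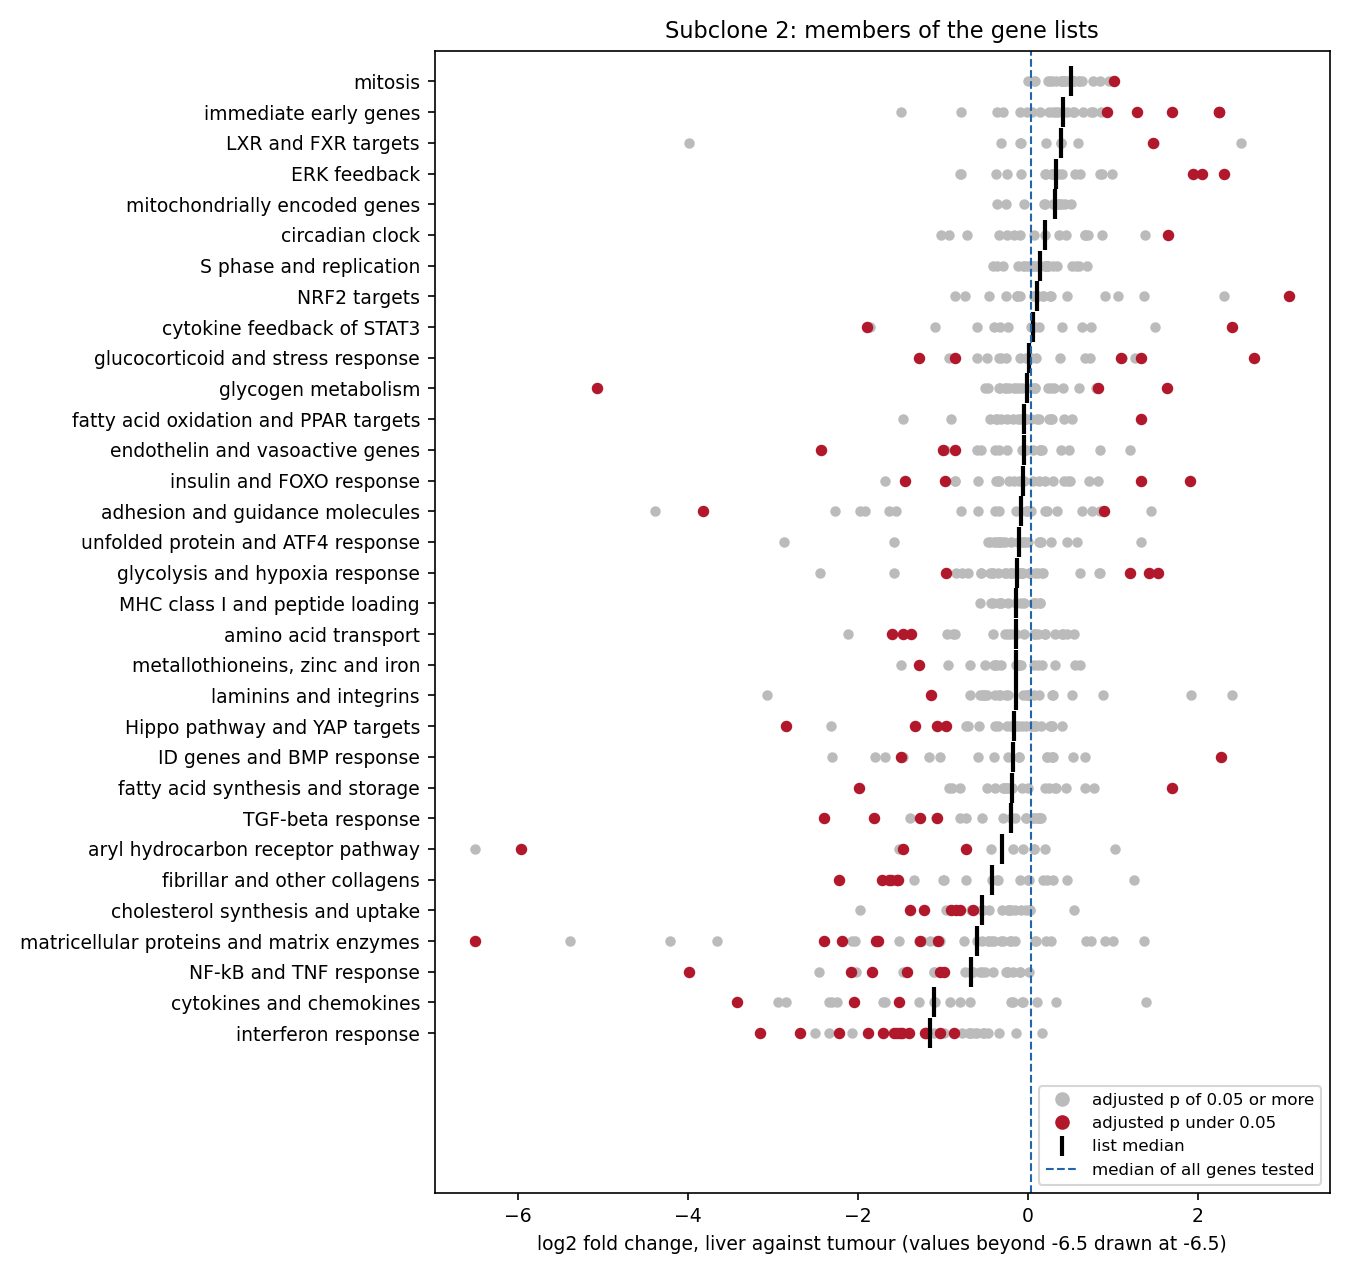
Log2 fold change (liver against tumour) of each tested member of 32 gene lists, ordered by list median (black bar); red points were called and the dashed line is the median of all genes tested. Called members lie only left of 0 in the interferon, cytokine, NF-kB, matrix, cholesterol and collagen rows and only right of 0 in the immediate early and ERK feedback rows.

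Immediate early genes were among the transcripts that were higher in liver. Such genes are switched on within minutes of a stimulus and need no new protein. What raised them in these samples was not tested. Of 25 tested 5 rose and none fell (median 0.42), against 0.494% of all genes that rose. The list median was 0.77, 0.71 and -0.22 in mice 1, 2 and 3, so the list as a whole was not higher in mouse 3. EGR1, a zinc-finger factor, was read at 82.4, 57.8 and 264 CPM in tumour and 830.5, 283 and 658 CPM in liver, and the lowest liver value, in mouse 2, lay just above the highest tumour value, in mouse 3 (log2 change 2.25 ± 0.38, adjusted p = 0.00319, edgeR). FOS, a subunit of AP-1, was read at 115, 137 and 419.8 CPM in tumour and 829, 426 and 706 CPM in liver (log2 change 1.70 ± 0.36, adjusted p = 0.0172, edgeR). ZFP36, which destabilises cytokine mRNAs, was read at 59.2, 62.2 and 125 CPM in tumour and 354, 325 and 413 CPM in liver (log2 change 2.24 ± 0.34, adjusted p = 0.00125, edgeR). IER2 and KLF10 rose by 1.28 and 0.93. JUN was read at 469.9, 381 and 582 CPM in tumour and 847, 391 and 1165 CPM in liver, almost level in mouse 2, and was not called. None of the 5 was called without the mouse term, and 2 (EGR1 and ZFP36) without mouse 1.

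Feedback inhibitors of MAP kinase signalling rose in 3 of 20 (median 0.33) with none lower. SPRY1, which restrains receptor tyrosine kinase signalling, had a narrow range in each tissue. It was read at 14.5, 16.4 and 16.0 CPM in tumour and 67.5, 62.8 and 63.9 CPM in liver (log2 change 2.05 ± 0.23, adjusted p = 6.83e-05, edgeR). DUSP1, a nuclear phosphatase of MAP kinases, was read at 169, 132 and 377 CPM in tumour and 1442, 663 and 1228 CPM in liver (log2 change 2.30 ± 0.28, adjusted p = 0.000142, edgeR). DUSP5, an ERK-specific phosphatase, was read at 241, 134 and 269.9 CPM in tumour and 1429.7, 549 and 615 CPM in liver (log2 change 1.94 ± 0.25, adjusted p = 0.000264, edgeR). All 3 were also called without the mouse term, without mouse 1 and without the liver of mouse 2. DUSP6 and SPRY4 changed by 0.88 ± 0.25 and 0.85 ± 0.29 and were not called. SPRY2 changed by -0.24 ± 0.19.

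SOCS3 (ENSG00000184557, chr17:78356778-78360077, minus strand), the inhibitor that STAT3 induces to end cytokine signalling, had the smallest adjusted p of all genes tested. It was read at 61.9, 47.1 and 119 CPM in tumour and 309, 273 and 604 CPM in liver, with a rise of near-equal size in each mouse (log2 change 2.40 ± 0.21, adjusted p = 1.16e-05, edgeR). In the STAT3 list of 16 the only other call was IL6R, the receptor for IL6, which fell by 1.90. A STAT site, TTCC, any 2 bases and GAA, was in 0 of 3 windows of these 2 genes. It was in 14.3% of the windows of all tested members of the list and in 3.86% of all windows. ID1 (ENSG00000125968, chr20:31605283-31606515, plus strand), an inhibitor of basic helix-loop-helix factors induced by bone morphogenetic proteins, was read at 44.6, 41.7 and 41.9 CPM in tumour and 306, 133 and 199 CPM in liver. The tumour values of ID1 were nearly equal and the liver values were spread well above them (log2 change 2.28 ± 0.28, adjusted p = 0.000142, edgeR). ID3 was read at 11.3, 11.5 and 16.2 CPM in tumour and 17.5, 27.0 and 16.8 CPM in liver and was not called. ID2 was below 5 CPM throughout. BAMBI, a decoy receptor for TGF-beta family ligands, fell by 1.50.

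**Figure D4:**
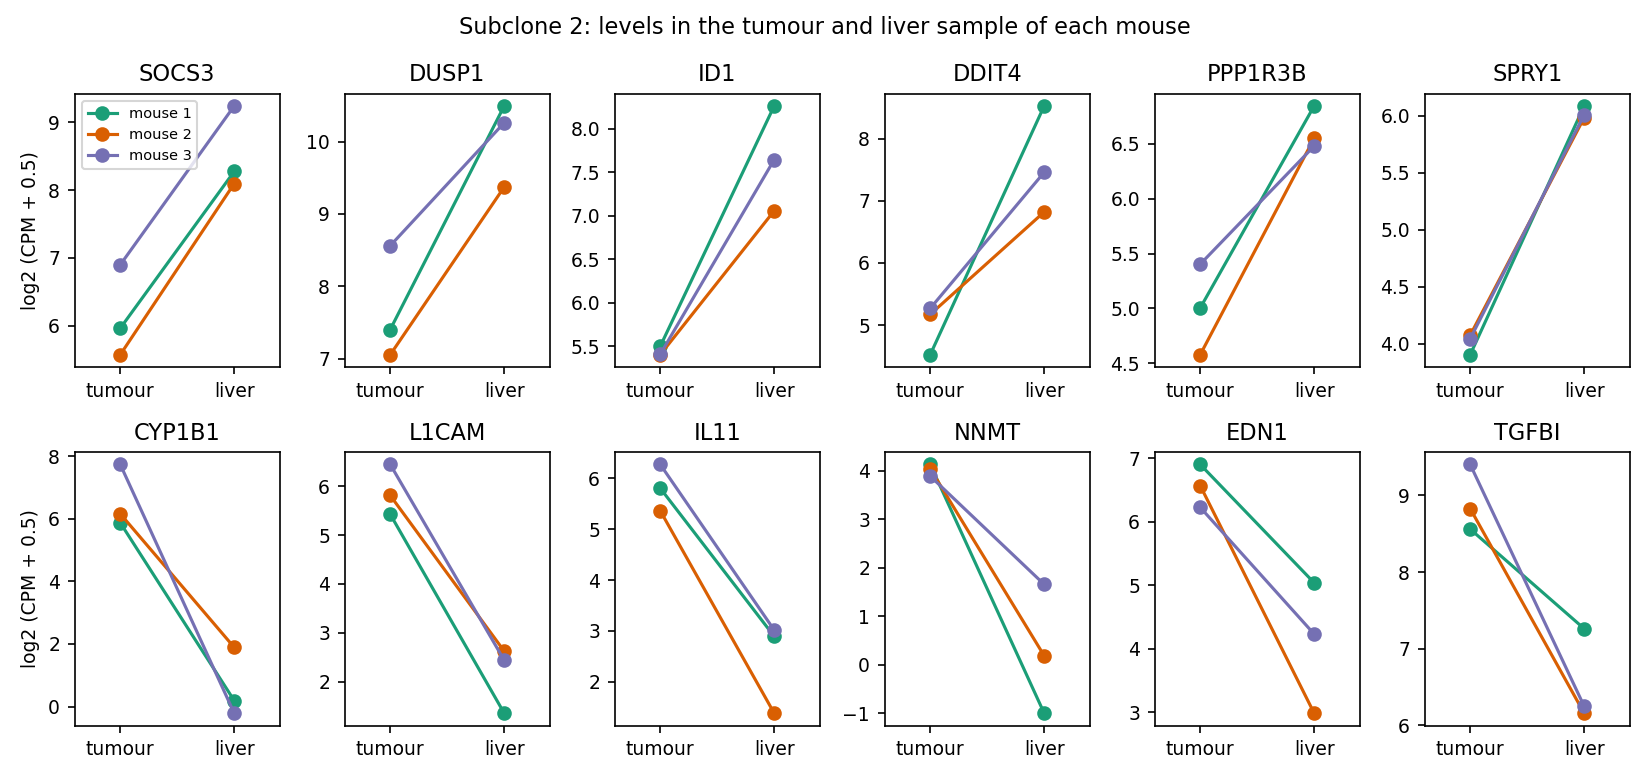
Levels of 12 genes as log2 (CPM + 0.5) in the tumour and liver sample of each mouse. The upper row holds genes that rose in all 3 mice and the lower row genes that fell in all 3; the vertical scale differs between panels.

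Stress and fuel-handling genes were called in both directions. DDIT4, an inhibitor of mTORC1 induced by glucocorticoids and low oxygen, was read at 22.5, 35.5 and 38.0 CPM in tumour and 369, 113 and 176 CPM in liver, highest in the liver of mouse 1 (log2 change 2.66 ± 0.44, adjusted p = 0.00246, edgeR). In the glucocorticoid and stress list of 20, ERRFI1, an inhibitor of EGFR, and PDK4, which limits glucose oxidation, rose by 1.10 and 1.33. The receptor gene NR3C1 and the metallothionein MT1X fell by 0.86 and 1.28, and the list median was 0.01. ARRDC3, an arrestin-like adaptor, was read at 78.7, 81.6 and 72.0 CPM in tumour and 446, 210.1 and 256 CPM in liver (log2 change 1.91 ± 0.23, adjusted p = 0.000142, edgeR). In the insulin and FOXO list of 25, ARRDC3 and PDK4 rose, and ARRDC2 and the binding protein IGFBP3 fell by 0.97 and 1.44. DEPP1, an autophagy-linked protein induced by FOXO factors, was read at 30.2, 16.8 and 6.08 CPM in tumour and 111, 56.7 and 34.6 CPM in liver.

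Of 25 glycogen genes 2 rose and 1 fell. PPP1R3B, the subunit that brings protein phosphatase 1 to glycogen and is known mostly from liver, was read at 31.6, 23.4 and 41.8 CPM in tumour and 115, 93.3 and 88.8 CPM in liver. All liver values lay well above all tumour values (log2 change 1.64 ± 0.18, adjusted p = 6.83e-05, edgeR). PYGB, brain-type glycogen phosphorylase, rose by 0.83, and PYGM, the muscle type, was read at 0.867, 0.446 and 2.83 CPM in tumour and 0, 0 and 0.277 CPM in liver. In the glycolysis and hypoxia list of 35, HK2, which phosphorylates glucose, was read at 101, 57.7 and 78.0 CPM in tumour and 211, 299 and 131 CPM in liver (log2 change 1.43 ± 0.31, adjusted p = 0.0192, edgeR). The glucose transporter SLC2A3 and the hypoxia-induced ANKRD37 rose by 1.53 and 1.20, and PFKFB4 fell by 0.96. BHLHE40, a repressor in the circadian clock, was read at 401, 426 and 775 CPM in tumour and 1771, 1629.9 and 1504 CPM in liver (log2 change 1.65 ± 0.22, adjusted p = 0.00039, edgeR).

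The largest rises belonged to genes at lower levels. XIRP2, an actin-binding protein of muscle, was read at 0.743, 1.97 and 1.18 CPM in tumour and 24.0, 9.11 and 26.4 CPM in liver (log2 change 4.02 ± 0.64, adjusted p = 0.00199, edgeR). AKR1C2, a steroid-reducing enzyme of a family with near-identical members, was read at 0.186, 1.66 and 1.18 CPM in tumour and 6.48, 7.69 and 12.2 CPM in liver and was the 1 call among 22 NRF2 targets. RAPGEF5, an activator of Rap GTPases, was read at 1.61, 0.510 and 0.438 CPM in tumour and 1.73, 30.4 and 11.6 CPM in liver, so that mouse 1 hardly differed. SYT13, an atypical synaptotagmin, was read at 1.86, 2.55 and 3.34 CPM in tumour and 16.9, 3.40 and 39.4 CPM in liver, and there mouse 2 hardly differed. CACNA2D4, a calcium channel subunit, was the only one of the 30 named genes whose groups overlapped. Of the 30, 20 were called in each of the 9 fits that left out 1 mouse or 1 sample. The exceptions were RAPGEF5, AKR1C2, SYT13, DEPP1, CACNA2D4, ANOS1, CRISPLD2, BICC1, PTX3 and NFATC1, with adjusted p up to 0.407 (edgeR).

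Several programmes held few or no calls. Of 27 mitosis genes 1 rose, the checkpoint kinase TTK (log2 change 1.02 ± 0.25, adjusted p = 0.0455, edgeR). TTK was not called without mouse 1 or without the liver of mouse 2. Nor was it called without the mouse term, with RLE size factors or in the 6 samples alone. Before adjustment 16 of the 27 were at a p under 0.05 (edgeR), and 2 were calls of DESeq2. The mitosis median was 0.51, 26 of the 27 had a positive log2 change, and 19 were higher in liver in all 3 mice. Of all genes tested, 30.0% moved the same way in 3 mice, counting both directions together. MKI67, a marker of cycling cells, was read at 269, 183 and 108 CPM in tumour and 150.1, 262 and 135 CPM in liver, higher in liver in mice 2 and 3 and lower in mouse 1. The 27 S phase genes, 26 genes of the unfolded protein and ATF4 response and 13 mitochondrially encoded genes held no call, with 2, 4 and 1 members at an unadjusted p under 0.05 and none with DESeq2. Mitochondrially encoded transcripts made up 2.84% to 3.95% of counts in tumour and 3.10% to 4.85% in liver. Among 22 genes of fatty acid oxidation only PDK4 was called, and among 11 LXR and FXR targets only MYLIP, a ubiquitin ligase, which rose by 1.48. In the bile duct marker list, whose keratins the line itself makes, SOX9 rose by 1.55, and CFTR was at 0 in all 6 samples.

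The liver samples were next set against lung metastases of subclone 2 from the same mice. This comparison shares the liver samples with the one above, so the values are given side by side only. It called 514 genes (2.95%), 230 higher (1.32%) and 284 lower (1.63%) in liver, and 4 without the mouse term. Leaving out mice or samples gave 27 (without mouse 2) to 542 (without mouse 1) calls, with 83 without mouse 3. Without the liver sample of mouse 3 there were 190, and without the lung samples of mice 1, 2 and 3 there were 330, 59 and 318. Among the genes lower than in tumour, several were also called lower than in lung. CYP1B1 changed by -4.24 ± 0.68 (adjusted p = 0.00329, edgeR), DIO2 by -4.41 ± 0.62 (adjusted p = 0.00139) and NNMT by -4.18 ± 0.58 (adjusted p = 0.00117, edgeR). MX2, WWC1 and EDN1 changed by -2.93 ± 0.43, -2.34 ± 0.39 and -1.82 ± 0.33, and these were called too. The matrix genes TGFBI, LOX and COL4A1, in contrast to their fall from tumour, changed by 0.14 ± 0.31, 0.04 ± 0.22 and 0.19 ± 0.27 against lung and were not called. TNC rose against lung, by 0.86 (adjusted p = 0.0123, edgeR). COL1A2, the second chain of type I collagen, was the largest named rise against lung (2.58 ± 0.40, adjusted p = 0.00274, edgeR), while against tumour it changed by -0.42 ± 0.37 and was not called. Mitochondrially encoded transcripts moved with this comparison: they made up 8.43% to 8.90% of counts in lung and 3.10% to 4.85% in liver, and 12 of the 13 genes were called lower in liver (median -1.17). Their part in the other values against lung was not tested.

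Of the 15 named genes that rose from tumour to liver, 2 were called against lung, in opposite directions. DEPP1 was higher in liver than in lung (1.24 ± 0.33, adjusted p = 0.0488, edgeR). XIRP2, AKR1C2, SYT13, RAPGEF5 and CACNA2D4 changed by 1.33 to 1.69 against lung and were not called. SPRY1, DUSP1 and ARRDC3 changed by 0.08 ± 0.21, -0.27 ± 0.27 and 0.10 ± 0.23 against lung, SOCS3 by -0.56 ± 0.20 and DDIT4 by 0.76 ± 0.41, with no call among them. ID1 was lower in liver than in lung, by 1.38 on the log2 scale (adjusted p = 0.0104, edgeR), although it was higher in liver than in tumour. HILPDA was called higher in both (1.70 ± 0.31 against tumour and 1.29 ± 0.31 against lung).

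**Figure D5:**
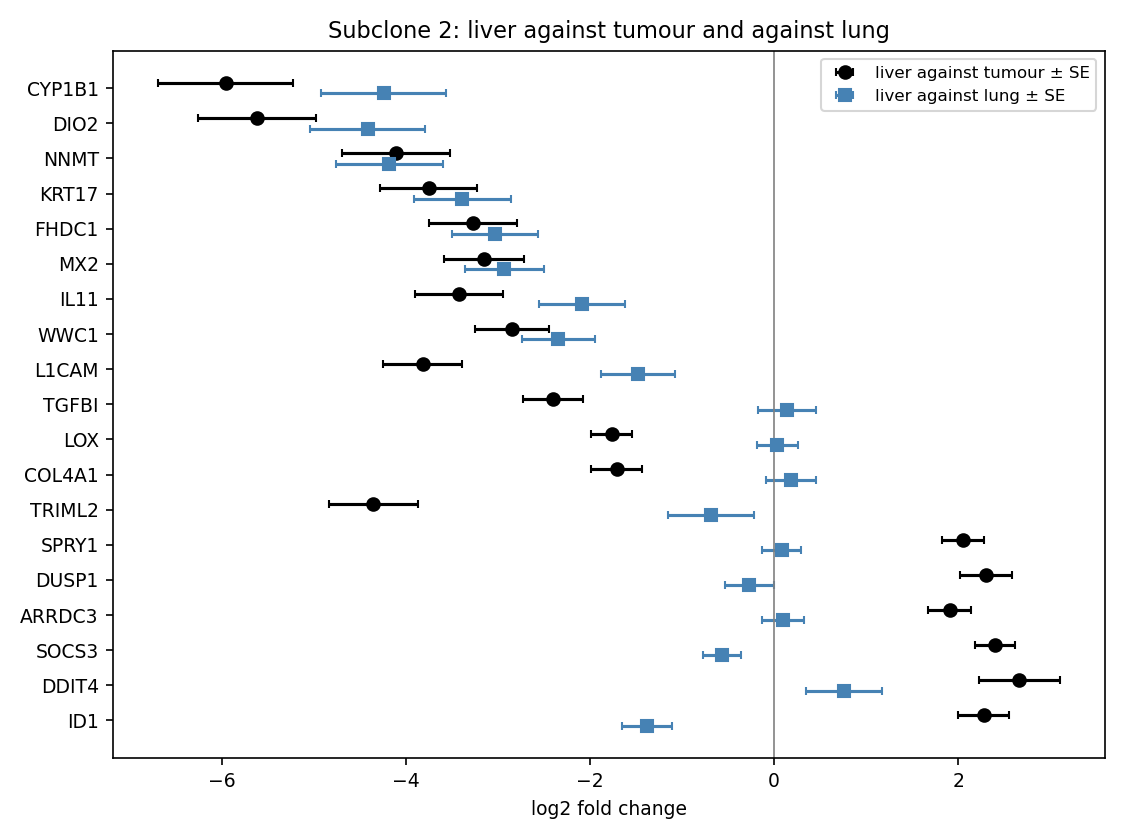
Log2 fold change with standard error for 19 genes in liver against tumour (black circles) and liver against lung (blue squares); both comparisons use the same liver samples. CYP1B1, DIO2, NNMT and KRT17 lie far left in both, the matrix genes TGFBI, LOX and COL4A1 lie near 0 against lung, and ID1 lies on opposite sides of 0.

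Whether the change from tumour to liver differed from that of subclone 13, sorted from the same organs of the same mice, was tested with an interaction term. Of 17418 genes 1 was called (0.00574%), ACTG2, the gamma smooth muscle actin gene, and 635 had an unadjusted p under 0.05. In subclone 2, ACTG2 was read at 3.22, 2.23 and 3.32 CPM in tumour and 0.192, 0 and 0.260 CPM in liver. In subclone 13 it was read at 15.3, 7.68 and 7.84 CPM in tumour and 20.4, 27.6 and 29.3 CPM in liver. It fell in all 3 mice in the first subclone and was higher in liver in all 3 in the second, a difference of -5.90 ± 0.80 (log2, adjusted p = 0.00861, edgeR). The call was lost without the mouse term (adjusted p = 0.331), without mouse 2 (0.0539), without mouse 3 (0.139) and without the subclone 13 liver of mouse 2 (0.0533). For the 30 named genes the differences between subclones ran from -3.38 to 2.68, with standard errors of 0.29 to 1.14 and a smallest adjusted p of 0.536 (edgeR). The 30 were chosen for large changes in subclone 2, and that change is part of the difference tested. Small p-values among them are therefore no independent sign of a difference between subclones. None of the 30 was called, and 11 had an unadjusted p under 0.05. The smallest were those of DIO2 (-3.38 ± 0.84, unadjusted p = 0.000692, edgeR) and KRT17 (-2.44 ± 0.68, unadjusted p = 0.00190, edgeR). With DESeq2 the interaction called 26 genes. Leaving out a mouse or sample gave 0 to 7 calls (7 without mouse 1, 3 without the subclone 13 tumour or the subclone 2 liver of mouse 1, 2 without the subclone 2 liver of mouse 2).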

How the data were processed

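RNA of sorted cells was extracted with a column kit (miRNeasy micro, with DNase), and libraries were made with TruSeq RNA v2, which does not keep the strand, per the labels' protocols. The values deposited by the authors are raw read counts per gene for 38526 genes. bcl2fastq 2.15.0.4, cutadapt, STAR, featureCounts and GRCh38 are named, per the submitters' processing notes, without their roles. The annotation is not given in the sources used here. All 38526 gene IDs matched GENCODE v29, used for positions and overlaps, and 29724 had a symbol. The 3 libraries of subclone 13 in each organ of mouse 1 were summed. The retransplantation table was not used.

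Genes passing filterByExpr were fitted with edgeR 4.0.16 (R 4.3.3) over all 18 samples, with TMM scaling and terms for group and mouse. The quasi-likelihood F test was used with Benjamini-Hochberg adjustment over 17418 genes at a threshold of 0.05. The standard error of a log2 fold change was taken as its size over the root of the F statistic. The labels give the same mouse number to the liver and tumour sample of a pair. Deviations from the group means correlated by 0.45, 0.36 and 0.25 within the 3 mice, and by -0.47 to 0.29 between mice (0.29 for the liver of mouse 3 with the tumour of mouse 2), and the mouse term lowered the biological coefficient of variation from 0.476 to 0.330. For the subclone 2 samples the mouse number also marks the sequencing run. Each summed subclone 13 sample of mouse 1 holds libraries of runs 1, 2 and 3, so mouse and run do not coincide there. The fit was tested on simulated data. Genes were named if called, if the group with more transcript averaged 5 CPM or above, and if all 3 mice shared the direction; the 15 largest changes each way were named, and 5 each way in the other comparisons. The members and the 39 gene lists were chosen with earlier results of these data known. Promoter sequences are from RefSeq (GRCh38.p14). Alternatives were no mouse term, DESeq2 1.42.0, RLE size factors, no filter, only the compared groups, leaving out each mouse or sample, 1 library of 3, and, added after seeing the data, a mouse term per subclone. Some members of the lists are not reported here by name. Counts limit precision in low genes. Counting intervals are not given, because replicate spread is used.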

Additional observations from a re-analysis of the deposited data

Results flagged for a closer look

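ACTG2 is listed because its change from tumour to liver differed between the subclones by -5.90 (log2, subclone 2 minus subclone 13) in the interaction test of edgeR, with opposite directions in all 3 mice of each subclone. All subclone 2 values were at or below 3.32 CPM, so this call rests on a gene at a low level in that subclone.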

How the results depend on the processing

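Without the mouse number as a replicate block, 50 genes were called between liver and tumour, 4 between liver and lung, and 0 in the difference between subclones. The blocked fit called 292, 514 and 1. DESeq2 called 687, 1364 and 26, no filter on low counts 618, 966 and 121, and a fit of only the groups compared 76, 259 and 0. Where 0 were called, 297 (no block) and 507 (groups compared) genes had an unadjusted p under 0.05. All 292 genes were among the DESeq2 calls, 274 among those without a filter and 69 among those of the 6 samples alone. In the 6 samples alone, the interferon, NF-kB, collagen and cholesterol lists held 9, 1, 5 and 1 calls, all lower in liver. The matricellular list held 2 lower there, and the immediate early and ERK feedback lists held 2 and 3 higher. RLE size factors, which called 309, and a single library for each summed sample, 313, stayed within 1.5 times the 292. Leaving out a mouse or sample gave 105 to 418 calls between liver and tumour, 27 to 542 between liver and lung and 0 to 7 for the difference. A mouse term per subclone, added after seeing the data, called 350, 577 and 2. Of the 30 named genes 12 were not called without the block and 10 not in the 6 samples alone; none lost its call with DESeq2. No gene named by the rule changed direction under these alternatives. List medians near 0 did: that of glucocorticoid and stress genes (0.01) was -0.08 without mouse 1, that of STAT3 feedback (0.06) -0.27 and that of mitochondrially encoded genes (0.32) -0.03. Without mouse 1 the medians of TGF-beta, immediate early, vasoactive, matrix and MHC class I genes were -0.49, 0.22, -0.21, -0.93 and -0.22, and without the liver sample of mouse 2 that of collagens was -0.66. The cause of these changes was not tested. Low counts limit genes such as MMP7, PYGM and TNFRSF9, which were at or near 0 in liver.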

Other observations

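Further called genes, chosen after their values were seen, fall into a few families. Hair and basal keratins were lower in liver beside KRT17: KRT81 was read at 119.5, 213 and 349 CPM in tumour and 13.9, 65.6 and 59.7 CPM in liver, KRT14 at 8.30, 1.97 and 6.11 CPM in tumour and 0.898, 0.387 and 0.969 CPM in liver and KRT16 at 3.72, 4.40 and 12.9 CPM in tumour and 0.0641, 1.25 and 3.36 CPM in liver, all without overlap, and their reads may be shared with paralogues. The simple epithelial keratins KRT7 and KRT19 changed by -0.63 ± 0.21 and 0.72 ± 0.21 and were not called. Genes of 3 transcription factors were also among those called lower. NFATC2 was read at 204, 125 and 434 CPM in tumour and 53.6, 79.1 and 41.5 CPM in liver, HIVEP1 at 138, 144 and 107 CPM in tumour and 30.8, 47.9 and 28.0 CPM in liver and HIVEP2 at 208, 212 and 233 CPM in tumour and 61.1, 119 and 55.4 CPM in liver, with log2 changes of -1.98 ± 0.38, -1.88 ± 0.22 and -1.57 ± 0.24.

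Genes of 3 secreted proteins outside the cytokine list, picked in the same way, were called lower. The growth factor PDGFA was read at 48.1, 54.1 and 58.8 CPM in tumour and 7.76, 28.6 and 16.6 CPM in liver, and the activin antagonist FSTL3 fell by 1.72 (log2, adjusted p = 0.00121, edgeR). The Wnt antagonist DKK1 was read at 419, 544 and 714 CPM in tumour and 261, 275 and 199 CPM in liver (log2 change -1.18 ± 0.21, adjusted p = 0.00504, edgeR). Among regulators that were higher in liver, MYC was read at 255, 139 and 385 CPM in tumour and 681, 512 and 389 CPM in liver, nearly equal in mouse 3, and the survival gene BCL2L1 at 272, 192 and 222 CPM in tumour and 510.2, 336 and 394 CPM in liver (log2 change 0.85 ± 0.15, adjusted p = 0.00504, edgeR).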
